A study of Mus musculus with 24 samples.

Results

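The core circadian clock genes were followed in dorsal root ganglia (DRGs), the ganglia that hold the cell bodies of sensory neurons, after a lesion of the sciatic nerve. The members were chosen by name: Arntl, Clock, Npas2, Per1, Per2, Per3, Cry1, Cry2, Nr1d1 and Nr1d2. All 10 genes were found among the 27398 gene names of the array, on 18 of its 41174 probes. The study asked how deletion of Nfil3, a transcriptional repressor of the bZIP family, alters gene expression after nerve injury. WT mice were Nfil3+/+ and KO mice were Nfil3-/- littermates, all adult C57BL/6J males, with the null allele made by crossing a floxed line to mice that express Cre in germ cells under a human CMV promoter, so that the deletion was not limited to neurons. The nerve of the left hind leg was transected and its ends were coaptated under Hypnorm/Dormicum anesthesia, and Temgesic, an opioid analgesic, was given daily until day 3. L4 and L5 DRGs were taken at day 2 and day 5, and control DRGs came from the non-injured, contralateral side. This gave 6 groups of 4 samples, WT and KO at control, day 2 and day 5, with both L4 and L5 DRGs as the source. The sample titles call the controls Day0, whereas the methods take control tissue from the non-injured side. The sources used here do not say whether animals were pooled or on which day the controls were taken. They also do not pair a control with the lesioned sample of the same mouse.

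The circadian clock is a feedback loop of transcription factors that runs in nearly every cell of the body. ARNTL (BMAL1) pairs with CLOCK, or with its relative NPAS2, and this pair activates genes through E-boxes. The PER and CRY proteins are made in this way and then inhibit the pair, while the nuclear receptors NR1D1 and NR1D2 (REV-ERB alpha and beta) repress Arntl through ROR elements. A further arm acts on D-boxes, where DBP, TEF and HLF activate and NFIL3 represses, so that the gene deleted here is itself tied to the clock. RNA of these genes rises and falls over the day, with Arntl opposite in phase to Dbp, Nr1d1 and the Per genes. The mice lived in a 12 h light/dark cycle, but the hour of dissection is not given in the sources used here. Any difference between groups in the hour of dissection therefore cannot be told apart from the time after lesion in what follows, and neither can the analgesic, which covered day 2 and not day 5.

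To show the regulatory sequences of the loop, the windows from 250 bases before to 50 bases after each annotated start were searched on both strands for the E-box CACGTG, the E-box variant CACGTT, the D-boxes TTATGTAA and TTACGTAA, the ROR element AGGTCA and the CRE TGACGTCA. Windows came from RefSeq (GRCm38.p6), and 9 of the 10 members had one. Per2 had none and was not searched. To let the elements be seen in place, the 250 bases before the start are shown here for the 4 members that differed between control, day 2 and day 5, 5′ to 3′, with motif matches in capitals.
Arntl (chr7:113207261-113207510, + strand): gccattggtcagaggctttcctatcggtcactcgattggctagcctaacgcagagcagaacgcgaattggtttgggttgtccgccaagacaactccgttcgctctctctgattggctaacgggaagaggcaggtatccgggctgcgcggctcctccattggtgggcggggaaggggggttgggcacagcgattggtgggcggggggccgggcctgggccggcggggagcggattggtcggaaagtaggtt
Per1 (chr11:69098699-69098948, + strand): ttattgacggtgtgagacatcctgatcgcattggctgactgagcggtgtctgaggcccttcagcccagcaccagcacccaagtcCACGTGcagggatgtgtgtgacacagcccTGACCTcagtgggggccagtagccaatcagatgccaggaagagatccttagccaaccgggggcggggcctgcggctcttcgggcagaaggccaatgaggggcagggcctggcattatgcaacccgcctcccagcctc
Per3 (chr4:151044666-151044915, - strand): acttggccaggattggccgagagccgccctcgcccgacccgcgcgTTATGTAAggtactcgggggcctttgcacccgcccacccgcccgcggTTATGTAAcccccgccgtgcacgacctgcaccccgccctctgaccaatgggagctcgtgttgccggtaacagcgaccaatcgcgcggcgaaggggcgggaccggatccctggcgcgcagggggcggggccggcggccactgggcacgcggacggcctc
Nr1d2 (chr14:18239107-18239356, - strand): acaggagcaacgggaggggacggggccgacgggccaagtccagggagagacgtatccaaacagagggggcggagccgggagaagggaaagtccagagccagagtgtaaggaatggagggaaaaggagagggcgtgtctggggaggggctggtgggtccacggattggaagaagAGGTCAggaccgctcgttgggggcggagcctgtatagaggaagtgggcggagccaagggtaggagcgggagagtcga
In the windows shown, Per1 carried 1 E-box and 1 ROR element, Per3 carried 2 D-boxes, and Nr1d2 carried 1 ROR element. Arntl had no match before its start in the window shown, and 1 ROR element 31 bases after it. For Arntl and Per1 the window with a match is the one shown. The window at the other annotated start had no match in either gene. Over all 9 members with a window, the E-box was found in 2 (Per1 and Cry1), against 8.09% of 27025 genes. The E-box variant was found in 3 (Cry1, Cry2 and Nr1d1), against 5.44% of genes. The D-box was found in Per3 alone, against 1.23% of genes, and the ROR element in 4 (Arntl, Clock, Per1 and Nr1d2), against 18.1%. The CRE was found in none of the 9 members and in 2.03% of genes. No matches shared bases, and Arntl, Clock and Per1 have more than 1 annotated start, which gives them more sequence to match. A match of letters is a description of the window and no evidence of binding.

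RNA was hybridized to 12 Agilent 4x44K arrays on 3 slides, with a different sample in the Cy3 and the Cy5 channel of each, and each channel was read as a single-color intensity. Values are quantile normalized log2 intensities, a scale on which 1 unit is a doubling, and levels can be compared between samples of a probe but not between probes. Between 54.5% and 72.3% of probes were well above background in a sample. Nfil3 was between 8.44 and 9.01 in WT controls, between 10.34 and 10.76 in WT at day 2, and between 10.64 and 11.09 in WT at day 5. In KO it was between 2.82 and 6.23 in 11 samples and 7.59 in KO control replicate 4, and the place of the probe relative to the deleted part was not established here. KO control replicate 4 is called day 5 in 1 of its label fields and Day0 in its title, and was used as control. The lesion itself was seen in Atf3, a transcription factor induced by axon injury, at 7.25 to 9.98 in controls, 12.94 to 14.10 at day 2 and 13.40 to 13.94 at day 5. Sprr1a, Gap43 and Gal, which are induced in injured sensory neurons, also rose at both days. Sprr1a was between 8.15 and 11.68 in the 4 controls that were hybridized on 1 array with a lesioned sample and between 5.48 and 6.12 in the 4 other controls. Skeletal muscle markers stood high in 4 samples (WT control replicate 1, KO day 2 replicates 1 and 4, KO day 5 replicate 1), although 0 of 4 muscle markers passed between control and either day. The labels call the tissue DRG neurons, but all of the listed markers of neurons, satellite glia, Schwann cells, macrophages, endothelium and fibroblasts exceeded background in 24 of 24 samples, so the RNA is that of whole ganglia.

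Arntl, the activator at the head of the loop, was lower at day 2 in both genotypes and higher again at day 5, where it overlapped the controls and its difference from them (0.33) narrowly missed the threshold. Per1 was higher than in controls at both days, Per3 was higher than in controls at day 2 alone, and Nr1d2 was lower at day 5. Across control, day 2 and day 5, 4 of the 10 members passed the F test of limma at an adjusted p of 0.05, taken over all probes, with the brightest probe standing for a gene. That test called 26.2% of all genes, against which the 4 of 10 are to be read. Arntl had an adjusted p of 2.00e-07 in that test, Per1 2.18e-05, Per3 4.07e-04 and Nr1d2 0.00223.

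**Figure D1:**
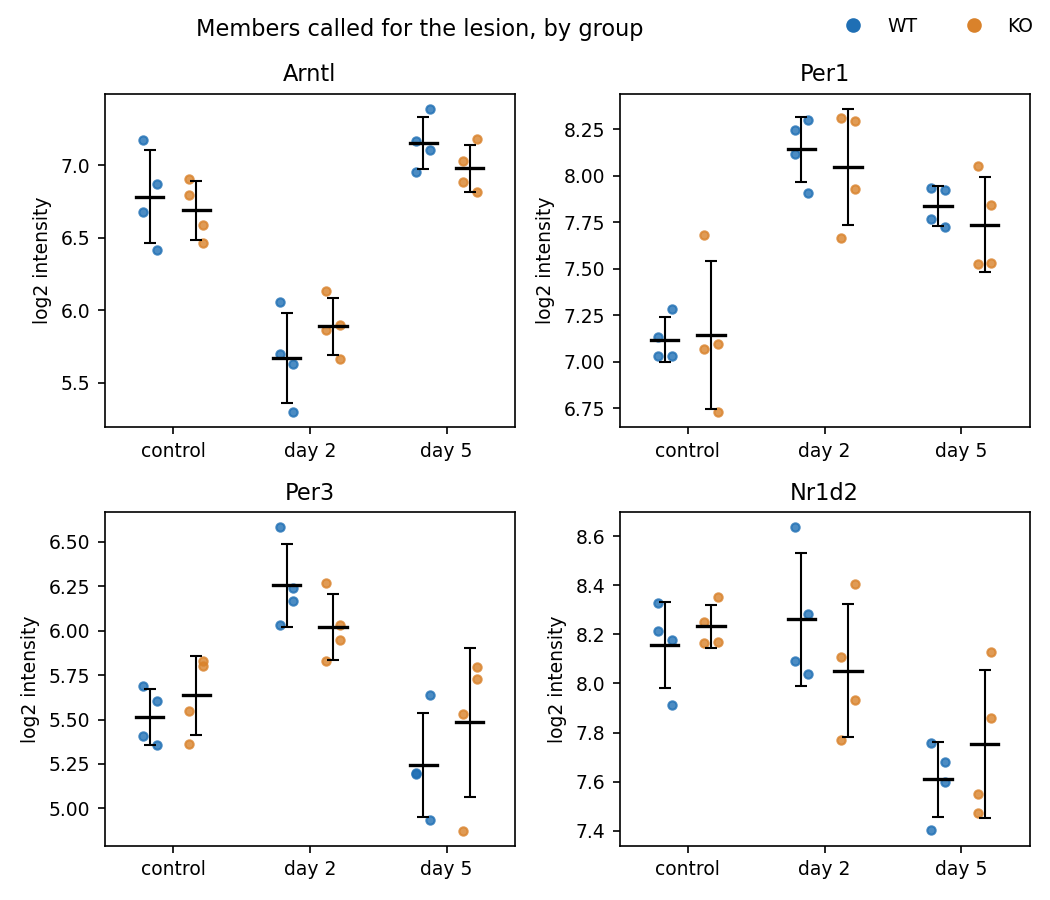
Log2 intensity (y axis) of Arntl, Per1, Per3 and Nr1d2 in the 24 samples, by time point (x axis) and genotype (WT blue, KO orange), where points are samples, bars are means and whiskers are SD with n = 4. All Arntl samples at day 2 lie at or below 6.14 and all other Arntl samples at or above 6.42, and each y axis has its own range.

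Arntl was measured by 1 probe (mm9 chr7:120456978-120457037), above background in every sample. Its log2 intensity was 7.18, 6.42, 6.68 and 6.87 in the WT controls and 6.91, 6.59, 6.80 and 6.46 in the KO controls. At day 2 it was 5.70, 5.30, 6.06 and 5.63 in WT and 6.14, 5.90, 5.86 and 5.66 in KO. Every day 2 sample of either genotype was thus below every control. At day 5 it was 7.17, 7.10, 6.96 and 7.39 in WT and 7.03, 6.82, 6.89 and 7.19 in KO, which was above every day 2 sample and overlapped the controls. The log2 difference between day 2 and control was -0.96 ± 0.12 (SE), a 1.94-fold decrease (limma adjusted p = 6.21e-06). That comparison called 12.7% of genes lower. From day 2 to day 5 Arntl rose by 1.29 ± 0.12, or 2.44-fold (adjusted p = 2.56e-06), in a comparison that called 2.24% of genes higher. By its p-value Arntl stood at place 12 of 27398 genes for day 5 minus day 2. Against control, the day 5 level differed by 0.33 ± 0.12 (adjusted p = 0.0522), so the order of levels was day 2, control, day 5, with the last pair not separated.

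The decrease of Arntl at day 2 was -1.11 in WT (adjusted p = 1.59e-04) and -0.80 in KO (adjusted p = 0.00344), and the groups did not overlap in either genotype. Within slides it was -1.10, -0.51 and -1.16, the first of these resting on 1 day 2 sample, and with the slide as a block it was -0.94. Its size depended on the background correction, at -0.51 with normexp and -0.58 with none, and the rise to day 5 was then 0.72 and 0.82. Without the 4 controls hybridized on 1 array with a lesioned sample it was -1.03 (adjusted p = 1.25e-04), and without the 4 samples high in muscle markers it was -0.90 (adjusted p = 1.82e-04). The difference between day 5 and control, which missed the threshold, passed it in 8 of the 14 other settings and when any 1 of WT control replicate 1, WT day 2 replicate 2 or 3, WT day 5 replicate 3, KO control replicate 1 or KO day 2 replicate 1 was left out, with values of 0.33 to 0.40 and adjusted p between 0.0170 and 0.0494 for these replicates. It was 0.39 (adjusted p = 0.0294) without the 4 samples high in muscle markers and 0.26 (adjusted p = 0.275) without the 4 controls hybridized on 1 array with a lesioned sample.

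Of the partners of ARNTL, Clock was lower at day 5 by a small difference that did not hold in all settings, and Npas2 was mostly not above background. Clock was read by 4 probes between mm9 chr5:76641377 and 76683469, of which the brightest was between 7.97 and 8.74 in all 24 samples. It differed from control by -0.05 ± 0.08 at day 2 (adjusted p = 0.729) and by -0.24 ± 0.08 at day 5 (adjusted p = 0.0402). At day 5 it was 7.97, 8.09, 8.01 and 8.24 in WT and 8.37, 8.25, 8.05 and 8.21 in KO. Control values were 8.41, 8.29, 8.22 and 8.43 in WT and 8.74, 8.15, 8.46 and 8.39 in KO, so the day 5 samples overlapped the controls. The difference at day 5 was 1.18-fold, and it did not pass in the F test over the 3 time points (adjusted p = 0.0747). It was lost in 5 of the 14 other settings and when any 1 of WT control replicates 1, 2 and 4, WT day 5 replicates 1 to 3, KO control replicates 1, 3 and 4 or KO day 5 replicates 2 to 4 was left out (-0.25 to -0.19, adjusted p between 0.0506 and 0.0951). It was also lost without the 4 controls named for their arrays (-0.16, adjusted p = 0.323) and without the 4 samples high in muscle markers (-0.25, adjusted p = 0.0632). A second Clock probe fell by 0.34 ± 0.11 at day 2 (log2, adjusted p = 0.0324), where the brightest probe did not pass, and the other two passed in neither comparison. Npas2 was well above background in 5 of 24 samples and in no WT control and no WT day 2 sample. Its values lay between 3.55 and 4.94 and no fold change is given.

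The Per genes encode the inhibitory PERIOD proteins, and Per1 is also an immediate early gene that responds to cAMP and glucocorticoids. Per1 (mm9 chr11:68922878-68922937) was 7.13, 7.29, 7.03 and 7.03 in WT controls and 7.07, 7.10, 7.68 and 6.73 in KO controls. At day 2 it was 8.25, 8.30, 8.12 and 7.90 in WT and 8.31, 7.93, 7.66 and 8.30 in KO. In WT all day 2 samples were above all controls, and in KO they were so except for 1 control at 7.68 and 1 day 2 sample at 7.66. At day 5 it was 7.94, 7.92, 7.76 and 7.72 in WT, all above the WT controls, and 7.52, 7.84, 8.05 and 7.53 in KO, which overlapped the KO controls through the 1 at 7.68. Per1 rose by 0.96 ± 0.13 at day 2, or 1.95-fold (adjusted p = 1.06e-05), where 9.48% of genes were called higher. At day 5 it was higher by 0.66 ± 0.13, or 1.58-fold (adjusted p = 5.32e-04), where 10.2% of genes were called higher. Day 5 and day 2 differed by -0.31 ± 0.13 and were not separated (adjusted p = 0.228), so the order was control, day 5, day 2. Within slides the day 2 difference was 0.37, 1.06 and 1.23, the lowest resting on 1 day 2 sample, and the day 5 difference was 0.53, 0.68 and 0.77.

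Per3 (mm9 chr4:150379256-150379315), whose upstream window holds both D-boxes shown above, was well above background in 23 samples. It was 5.41, 5.60, 5.69 and 5.36 in WT controls and 5.55, 5.83, 5.36 and 5.80 in KO controls. At day 2 it was 6.03, 6.24, 6.58 and 6.17 in WT and 6.27, 6.03, 5.83 and 5.95 in KO. The day 5 values were 5.20, 4.94, 5.20 and 5.64 in WT and 5.53, 5.80, 4.88 and 5.73 in KO. All day 5 samples were below all day 2 samples, and the day 2 samples lay above the controls in WT and met them at 5.83 in KO. Per3 was higher at day 2 by 0.56 ± 0.13, or 1.48-fold (adjusted p = 0.00399), and from day 2 to day 5 it fell by 0.77 ± 0.13 (log2), or 1.71-fold (adjusted p = 0.00161). The second comparison called 1.04% of genes lower, and Per3 took place 213 of 27398 in it. Day 5 and control differed by -0.21 ± 0.13 (adjusted p = 0.312), so that only day 2 stood apart. The day 2 difference was 0.27 with normexp and 0.36 with no background correction, and from day 2 to day 5 it was then -0.35 and -0.44. Without the 4 samples high in muscle markers the day 2 difference was 0.50 and missed the threshold (adjusted p = 0.0561).

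Per2 gave different answers on its 2 probes. The brighter (mm9 chr1:93336538-93336597) lay between 4.67 and 5.92 and differed from control by 0.12 ± 0.16 at day 2 and by -0.05 ± 0.16 at day 5, neither of which passed. The dimmer (mm9 chr1:93313046-93313105), well above background in 21 of 24 samples, was 5.10, 5.35, 4.98 and 4.39 in WT controls and 5.28, 5.00, 5.06 and 5.14 in KO controls. At day 2 this probe was 5.12, 5.35, 5.41 and 5.59 in WT and 5.43, 5.27, 5.48 and 5.12 in KO. At day 5 it was 4.38, 4.44, 4.64 and 3.29 in WT and 4.38, 4.79, 4.29 and 4.85 in KO, below every day 2 sample. On this probe Per2 fell by 0.65 ± 0.17 from control to day 5 (log2, adjusted p = 0.00612). From day 2 to day 5 it fell by 0.96 ± 0.17 (log2, adjusted p = 0.00178). With both probes averaged, Per2 differed by -0.35 between day 5 and control (adjusted p = 0.0300) and by -0.57 between day 5 and day 2 (adjusted p = 0.00640). Which probe represents the Per2 transcript was not tested.

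Of the cryptochromes, which complete the inhibitory complex with PER, neither passed in a lesion comparison. Cry1 was close to background, above which 12 and 11 of the samples stood well on its 2 probes, and the brighter lay between 3.47 and 5.03. It differed from control by 0.01 (95% confidence interval -0.46 to 0.49) at day 2 and by -0.33 (-0.81 to 0.14) at day 5. The day 2 interval does not reach the day 2 differences of Arntl (-0.96) and Per1 (0.96), but values this close to background limit what it shows. Cry2 (mm9 chr2:92244363-92244422) was measured in all samples and lay between 8.57 and 9.22. Its group means were 8.84 ± 0.18 (SD, n = 4) in WT controls, 9.05 ± 0.11 in WT at day 2 and 8.86 ± 0.08 in WT at day 5, and in KO 8.88 ± 0.20, 9.01 ± 0.14 and 8.76 ± 0.13. Its differences were 0.17 (0.01 to 0.33, adjusted p = 0.141) at day 2 and -0.05 (-0.22 to 0.11, adjusted p = 0.732) at day 5, and its second probe gave 0.18 and -0.08.

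The REV-ERB receptors close the second loop, on Arntl. Nr1d2 (mm9 chr14:19037253-19037312) was 8.21, 8.18, 8.33 and 7.91 in WT controls and 8.16, 8.35, 8.25 and 8.17 in KO controls. At day 2 it was 8.09, 8.28, 8.64 and 8.04 in WT and 7.77, 7.93, 8.11 and 8.41 in KO, around the controls. The day 5 values were 7.40, 7.60, 7.76 and 7.68 in WT and 7.47, 7.86, 7.55 and 8.13 in KO. In each genotype all day 5 samples were below all controls of that genotype. Nr1d2 fell by 0.51 ± 0.11 at day 5 (log2), or 1.43-fold (adjusted p = 0.00188), in a comparison that called 13% of genes lower. From day 2 to day 5 it fell by 0.48 ± 0.11 (log2, adjusted p = 0.0226), while day 2 and control differed by -0.04 ± 0.11 (adjusted p = 0.869). Within slides the day 5 difference from control was -0.66, -0.18 and -0.56. The difference between day 5 and day 2 missed the threshold with the slide as a block (-0.44, adjusted p = 0.0530), with the array as a random block (-0.40, adjusted p = 0.0667) and without the 4 samples high in muscle markers (-0.41, adjusted p = 0.0623). It also missed it without WT day 5 replicate 1 (-0.44, adjusted p = 0.0567), KO day 5 replicate 1 (-0.43, adjusted p = 0.0508) or KO day 5 replicate 3 (-0.44, adjusted p = 0.0580). Nr1d1 varied more within groups, with a pooled SD of 0.46 against 0.22 for Nr1d2, and its brightest probe lay between 5.43 and 7.44. Its group means were 6.07 ± 0.47 (SD, n = 4) in WT controls, 6.74 ± 0.48 in WT at day 2 and 5.94 ± 0.29 in WT at day 5, and in KO 6.25 ± 0.58, 6.25 ± 0.28 and 6.13 ± 0.56. Nr1d1 differed from control by 0.34 (-0.13 to 0.80) at day 2 and by -0.12 (-0.59 to 0.34) at day 5, and none of its 3 probes passed in any comparison.

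**Figure D2:**
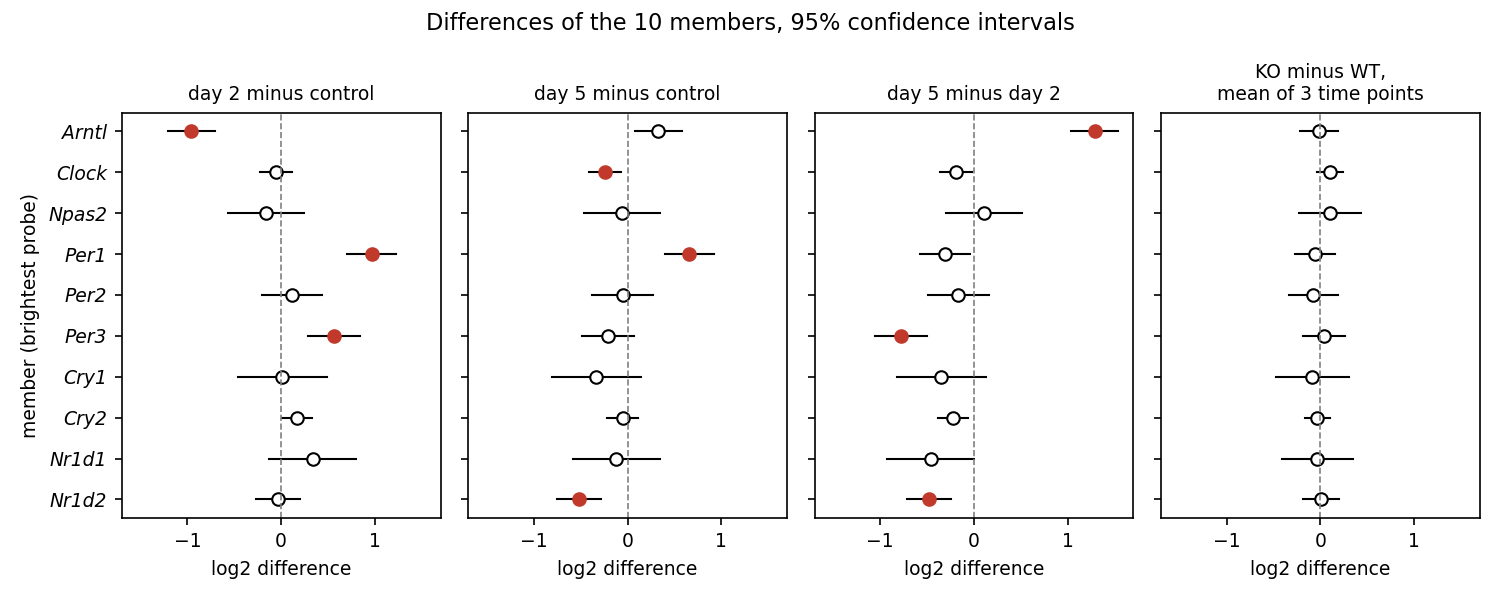
Log2 difference (x axis) of each member (y axis, brightest probe) in 4 comparisons, with 95% confidence intervals as lines, red points where the limma adjusted p is under 0.05 and open points elsewhere. Arntl lies at -0.96 for day 2 and at 1.29 for day 5 minus day 2, and no member is red for KO minus WT.

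In all, 3 of 10 members were called at day 2 (2 higher, 1 lower), 3 at day 5 (1 higher, 2 lower) and 3 for day 5 minus day 2 (1 higher, 2 lower). Over all genes, 9.48% were called higher and 12.7% lower at day 2, and 10.2% higher and 13% lower at day 5, so the member counts at these days were near the background. For day 5 minus day 2 the shares over all genes were 2.24% and 1.04%. The median difference of the members was 0.06 at day 2 and -0.09 at day 5, beside -0.02 and -0.03 over all genes. Day 2 and day 5 share their controls. In bulk tissue, fewer cells of a type and less RNA per cell cannot be told apart, and RNA of cell type markers moved with the lesion. Of 8 neuron markers 6 fell at day 2, and 5 fell and 1 rose at day 5, with a summed log2 level of 17.42 to 17.70 in controls, 17.01 to 17.43 at day 2 and 17.27 to 17.39 at day 5. Of 7 macrophage markers 4 rose at day 2 and 7 at day 5, with a summed level of 10.02 to 10.88, 10.53 to 11.49 and 11.65 to 12.16. Of 5 satellite glia markers 1 rose and 3 fell at day 2, and 1 rose and 2 fell at day 5. Of 6 Schwann cell markers 2 rose at day 2 and 1 rose at day 5. Of 4 endothelial markers 1 rose at day 2 and 0 passed at day 5, and 0 of 4 fibroblast markers passed at either day. No defining marker of these types was at background, and their part in the differences of the clock genes was not tested.

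**Figure D3:**
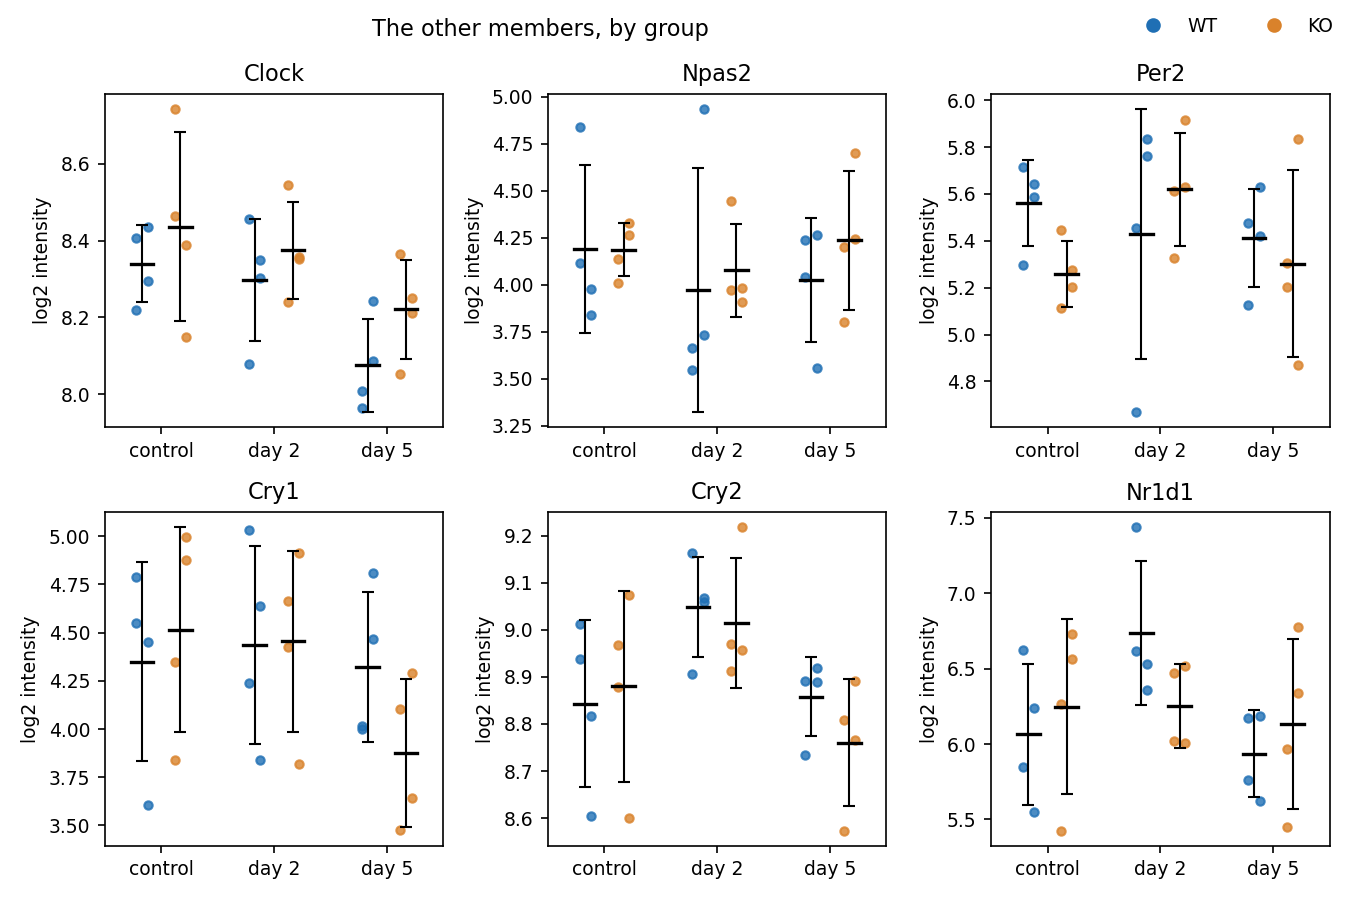
Log2 intensity (y axis) of Clock, Npas2, Per2, Cry1, Cry2 and Nr1d1 (brightest probes) in the 24 samples, by time point (x axis) and genotype (WT blue, KO orange), where points are samples, bars are means and whiskers are SD with n = 4. The time points overlap in each of these genes, and Npas2 and Cry1 lie near background, at 3.55 to 4.94 and 3.47 to 5.03.

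Tested gene by gene, the 10 members did not separate by genotype. The paper lists circadian rhythm among the gene ontology terms altered in KO at day 5, from a test of grouped genes. Such a test takes all genes of a term together, and it was not repeated here. Averaged over the 3 time points, the KO minus WT difference of the 10 members lay between -0.09 (Cry1) and 0.11 (Clock), and 0 of 10 passed in limma. None had an unadjusted p under 0.05 either, and 0.0073% of all genes were called. The interval of the difference was -0.22 to 0.18 for Arntl, -0.27 to 0.16 for Per1 and -0.19 to 0.20 for Nr1d2. It was -0.18 to 0.27 for Per3, the only member with D-boxes among those searched, which did not include Per2. For Npas2 it was -0.23 to 0.43 and for Cry1 -0.48 to 0.30, and for Nr1d1 it was -0.41 to 0.34. Within single time points the members differed by -0.30 to 0.18 in controls, by -0.48 to 0.22 at day 2 and by -0.44 to 0.24 at day 5, and 0 passed.

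The lesion response was also not separated by genotype, and 0 of 10 members and 0% of all genes passed the time*genotype interaction test (smallest unadjusted p among members 0.196, for Per3). Not even Nfil3 passed, with means of 8.65 in control and 10.91 at day 5 in WT, and 4.67 and 4.42 in KO. The paper reports a small set of genes that responded differently in KO, from SAM and a limma interaction analysis, and no such set was found here. The test therefore does not show that the members respond alike in WT and KO. In WT 3 members were called at day 2 (Arntl, Per1 and Per3), where 11% of genes were, and 2 at day 5 (Per1 and Nr1d2), where 13.9% were. In KO 2 were called at day 2 (Arntl and Per1), where 11.8% of genes were, and 1 at day 5 (Per1), where 12.7% were. Per3 was one of those called in WT and not in KO at day 2, with differences of 0.74 and 0.38, and the difference between these was -0.36 (-0.91 to 0.19). Nr1d2 at day 5 was the other, with -0.55 and -0.48, which differed by 0.07 (-0.40 to 0.54). Nr1d1 had the widest gap at day 2, 0.67 in WT and 0.01 in KO, which differed by -0.66 (-1.59 to 0.26, unadjusted p = 0.151). None of these gaps passed, and their intervals hold differences of the size of the lesion response itself.

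Genes of the wider clock pathway were called about as often at day 2 and day 5 as all genes were. Of 24 listed genes 5 rose and 0 fell at day 2, and 5 rose and 2 fell at day 5, against the 9.48% and 12.7% of all genes at day 2 and the 10.2% and 13% at day 5 given above. Their median difference was 0.10 at day 2 and -0.05 at day 5, beside -0.02 and -0.03 over all genes. For day 5 minus day 2, 0 of the 24 listed genes were called higher and 4 lower, against 2.24% and 1.04% of all genes. In the D-box arm, Dbp, the best known output activator of the clock, rose 1.14 ± 0.20 at day 2 (adjusted p = 3.36e-04) and from day 2 to day 5 it fell by 1.08 ± 0.20 (log2, adjusted p = 0.00384). Its samples lay between 10.27 and 11.46 in controls, between 11.33 and 12.87 at day 2 and between 10.32 and 11.54 at day 5. The rise at day 2 was 1.45 in WT (adjusted p = 0.00225), where all day 2 samples were above all controls, and 0.84 in KO (adjusted p = 0.0689), and the interaction test, which called no gene, did not separate them. Tef, of the same family, fell by 0.35 at day 5 (log2, adjusted p = 7.92e-04), and Hlf did not pass. Gm129, the array's name for Ciart, an inhibitor of the CLOCK and ARNTL pair, rose 1.03 at day 2 (adjusted p = 0.0115) but stood well above background in 3 of 8 controls, 7 of 8 day 2 samples and 2 of 8 day 5 samples, so the size of its difference rests on values near background. Bhlhe41 (DEC2), a repressor at E-boxes, rose 1.09 at day 2 (adjusted p = 3.79e-07) and 0.77 at day 5 (adjusted p = 2.47e-05), with the same on its second probe (1.11 and 0.75). Bhlhe40 differed by 0.31 at day 2 (adjusted p = 0.0541).

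Among the kinases and cofactors of the loop, Csnk1e, which phosphorylates PER proteins, rose 0.45 and 0.59 at the 2 days (adjusted p = 5.01e-04 and 2.20e-05). Nono, a partner of PER, rose 0.43 and 0.42 (adjusted p = 1.64e-05 and 1.33e-05), although its second probe differed by -0.07 and -0.08. Rora, an activator at ROR elements, rose 0.42 at day 5 (adjusted p = 0.00612), as did the deacetylase gene Sirt1, by 0.33 (adjusted p = 0.0114). The second Sirt1 probe differed by 0.21 at day 5 and did not pass (adjusted p = 0.0912). Timeless fell by 0.32 at day 5 (log2, adjusted p = 0.0109) on its brightest probe and was higher by 0.34 on the other (adjusted p = 0.0119), so its direction is not settled. That other probe was also higher at day 2, by 0.45 (adjusted p = 0.00141). For Csnk1d the brightest probe differed by 0.05 at day 2, while 2 of its other probes rose by 0.34 and 0.26. The other listed genes passed at neither day, and Rorb was well above background in 0 samples.

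**Figure D4:**
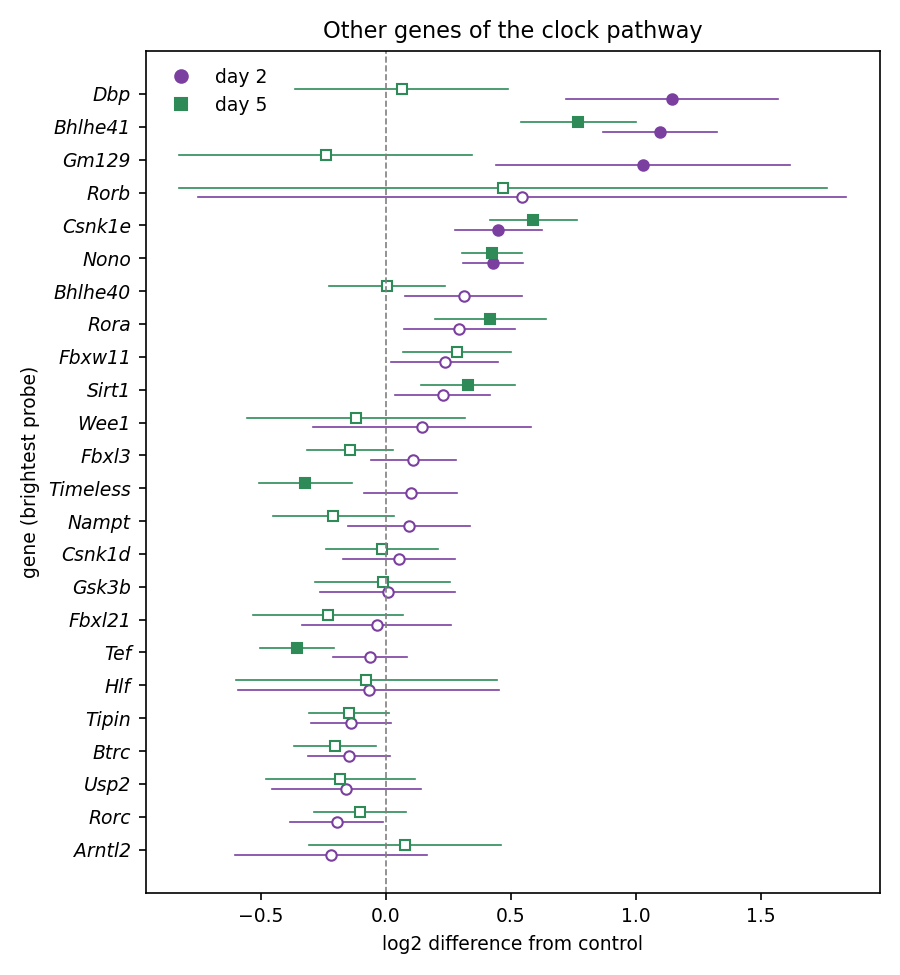
Log2 difference from control (x axis) at day 2 (purple circles) and day 5 (green squares) for 24 other genes of the clock pathway (y axis, brightest probe), with 95% confidence intervals as lines and filled symbols where the limma adjusted p is under 0.05. Dbp, Bhlhe41 and Gm129 lie at 1.14, 1.09 and 1.03 at day 2, and Dbp and Gm129 are open at day 5.

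The patterns across all samples were also compared with that of Arntl, the member with the smallest p in the F test. Among 14484 genes measured well in all samples, the highest Pearson correlations with Arntl were those of Ppil4 (r = 0.83), Creb3l2 (r = 0.82) and Dnajb2 (r = 0.80). These values describe 24 samples that fall into time points, so the time points carry much of them. Creb3l2 differed by -0.28 at day 2 (adjusted p = 0.00576) and rose 0.39 from day 2 to day 5 (adjusted p = 0.00230), while Ppil4 and Dnajb2 passed in neither of those comparisons. Correlations of larger size but opposite sign were found for Pop1 (r = -0.91), Ppp4r4 (r = -0.89) and Naa25 (r = -0.85), which were all higher at day 2 (differences of 0.31, 0.35 and 0.47, adjusted p = 4.31e-04, 0.00341 and 8.57e-05). These genes and Creb3l2 were picked by their correlation with Arntl in the same samples, so their differences are no separate evidence. Within groups, with each group's mean taken out, no co-variation of Arntl with another member was detected. Of 9 pairs 0 passed in a permutation test within groups (100000 resamples, two-sided), and the highest correlation was with Clock (Pearson's r = 0.37, permutation p = 0.103, adjusted p = 0.931, and Spearman's rho = 0.38, permutation p = 0.104, adjusted p = 0.737). Without the 2 samples farthest from the median of Arntl it was 0.28. Not passing at this number of samples does not show that Arntl and the other members vary apart. Pairs without Arntl were not tested, and their Pearson correlations within groups ran from -0.40 (Clock and Nr1d1) to 0.62 (Nr1d1 and Nr1d2).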

How the data were processed

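The authors hybridized RNA to two-color arrays, scanned them and extracted spots with Agilent Feature Extraction. The deposited files hold a foreground and a background intensity for each spot and channel, not normalized, with flags for outliers and for signal well above background. Following the study's methods, Edwards background correction was applied and log2 values of the 24 channels were quantile normalized. The use of mean foreground and median background, leaving out outlier spots and averaging spots of a probe were choices made here. R 4.3.3 and limma 3.58.1 were used to fit 1 mean per group to all 24 samples (lmFit, eBayes), with Benjamini-Hochberg adjustment over 41174 probes and a threshold of 0.05. The brightest probe stood for a gene. No member value was missing and no member spot was saturated, and precision is limited by the 4 samples of a group.

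The genes named are the members, Nfil3, 4 lesion markers, clock pathway genes that passed at day 2 or day 5, and the 3 genes most like Arntl. Probes that disagree with the brightest, the 3 genes most opposed to Arntl, and Hlf, Bhlhe40, Csnk1d and Rorb, were named after their values were seen. The members and lists were chosen with earlier results of these data known. Groups follow the sample titles. P-values rest on the spread between samples within groups, pooled over all groups and moderated across probes by eBayes. The main fit treats samples that share an array, and control and lesioned samples, as independent. Positions of probes were taken from the annotation in the array files (mm9). A simulation with 200 changed probes among 40895 was used to test the fit: for day 2 minus control it recovered 68% of changes of 1 (log2) and 36.5% of changes of 0.5. In the data 8716 probes were called in that comparison. The adjustment is less strict where more probes change, so these shares do not give the recovery in the data. Settings tried instead were normexp (offset 50) or no background correction, Agilent's processed signals on a 75th percentile scale, the median foreground, loess followed by Aquantile, outliers kept, a filter on dim probes, averaged probes, dye, slide, array, array partner and replicate terms, a trend in eBayes, and each sample left out. Samples high in muscle markers (Myh4 over 9 on the log2 scale) and controls hybridized on 1 array with a lesioned sample were left out as alternatives added after seeing the data. The authors' SAM analysis and their test of grouped genes were not used here.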

Additional observations from a re-analysis of the deposited data

Results flagged for a closer look

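In 3 of 60 groups of 4 samples, 1 sample stood far from the other 3 (10 members in 6 groups), and chance alone marks about 1 in 20 groups. Npas2 was 4.94 in WT day 2 replicate 4 and 3.55 to 3.74 in the others. Npas2 was 4.44 in KO day 2 replicate 1 and 3.91 to 3.98 in the others. Cry2 was 8.73 in WT day 5 replicate 1 and 8.89 to 8.92 in the others. Npas2 was not well above background in most samples, and neither gene passed in a lesion comparison.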

How the results depend on the processing

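Over 1200 values of a member in a lesion comparison under another setting, 1157 kept their side of the threshold, 26 lost it, 17 gained it and 0 changed direction while called. Most of these values belong to comparisons not called in the main fit, so the pooled count does not measure how firmly the calls hold. Of the losses, Clock at day 5 had 7 in 16 settings and 12 in 24 fits with 1 sample left out. The rest fell to Nr1d2 for day 5 minus day 2 and to Per3 at day 2. The members called at day 2 numbered 3 in every setting except 2 without the samples high in muscle markers, those at day 5 numbered 2 to 4, and those for day 5 minus day 2 numbered 2 to 4. No setting called a member for KO minus WT or the interaction, or a pair with Arntl. Clock pathway genes called at day 2 numbered 4 to 7 against 5, and 5 to 8 with 1 sample left out (8 without KO day 2 replicate 3). Those at day 5 numbered 5 to 9 against 7. The sources used here do not say whether replicate numbers pair samples. After group means were removed, same-numbered samples correlated at a median of 0.07 (-0.06 to 0.21). Samples with different numbers correlated at a median of -0.03 (-0.23 to 0.20), and 11 of 24 samples correlated best with their own number. Replicate numbers also follow the dye, so these values do not settle whether numbers pair samples. With the replicate block the members called stayed at 3, 3 and 3 in number, Clock at day 5 lost its call (-0.24, adjusted p = 0.0559), Arntl at day 5 gained one (0.33, adjusted p = 0.0332) and the pathway genes called numbered 6 and 8. Signal over background limits Npas2 and Cry1. Changes of 0.5 (log2) were recovered in 36.5% of simulated probes, but far fewer probes changed in the simulation than were called in the data. That share therefore does not give the recovery in these results.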
